A study of Mus musculus with 2 samples.

Results

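The Pax, Lhx, Nkx, Gata and Tbx genes encode 5 families of transcription factors that direct the formation of organs and cell lineages in the embryo. Members were the protein-coding genes whose GENCODE M21 symbol begins with one of these names followed by a digit. They were 50 of the 21899 protein-coding genes in the table, with 9 Pax, 8 Lhx, 14 Nkx, 6 Gata and 13 Tbx genes. The samples were mouse embryonic stem (ES) cells of the E14 line, of 129/Ola background and with Ago1 knocked out, grown on gelatin in 15% serum with 100 U/ml leukaemia inhibitory factor (LIF). Polyadenylated RNA was sequenced in 2 libraries of this single group, called KO1 and KO2 here, with 57048330 and 54408708 counts. Whether they are separate clones or cultures is not stated in the labels, and their spread may be technical. Cells without the knockout were not analysed here, so the values give levels in knockout cells and not an effect of the knockout.

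Members of the 5 families bind DNA through different domains. Pax proteins carry a paired domain, Lhx proteins a homeodomain with LIM domains, Nkx proteins a homeodomain, Gata proteins zinc fingers and Tbx proteins a T-box. Most are silent in ES cells and are switched on as lineages form, and many of their promoters lie in CpG islands bound by Polycomb complexes in ES cells. Exceptions are known: Tbx3 is part of the network that keeps ES cells undifferentiated, and Gata4 and Gata6 specify the primitive endoderm, a lineage that ES cell cultures can form.

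The labelled cell type was checked against its markers, and 7 of 7 ES cell markers were detected, with a summed level of 4918 CPM in KO1 (counts scaled to 1000000 per library) and 5207 CPM in KO2. Of 7 fibroblast markers 1 was detected, Thy1, at 20.4 CPM in KO1 and 23.9 CPM in KO2. Postn and Lum had 0 counts, and the others were below 1 CPM, the highest being Col1a1 with 23 and 54 counts. Reads of Ago1, the targeted gene, were present in both libraries, 1497 in KO1 and 452 in KO2, and the position of these reads in the transcript is unknown. KO2 also held more reads of GC-rich transcripts than KO1, which touches the comparison of the libraries further on.

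Few of the developmental factors were transcribed at an appreciable level. A gene was called detected at 1 CPM or more in both libraries, and 11 of the 50 members passed, or 22.0%, beside 55.5% of all protein-coding genes. They included Tbx3, Tbx20, Gata4, Gata6, Gata1, Gata2, Pax8, Lhx6, Nkx6-3 and Nkx6-2. A further 8 members had no count in either library, or 16.0%, beside 19.4% of protein-coding genes. The median member lay at 0.126 CPM, and the median protein-coding gene at 2.65 CPM. With 2 libraries of 1 group no test was possible, and these shares are descriptions. In bulk RNA, fewer cells that express a gene and less of its RNA per cell cannot be told apart.

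**Figure D1:**
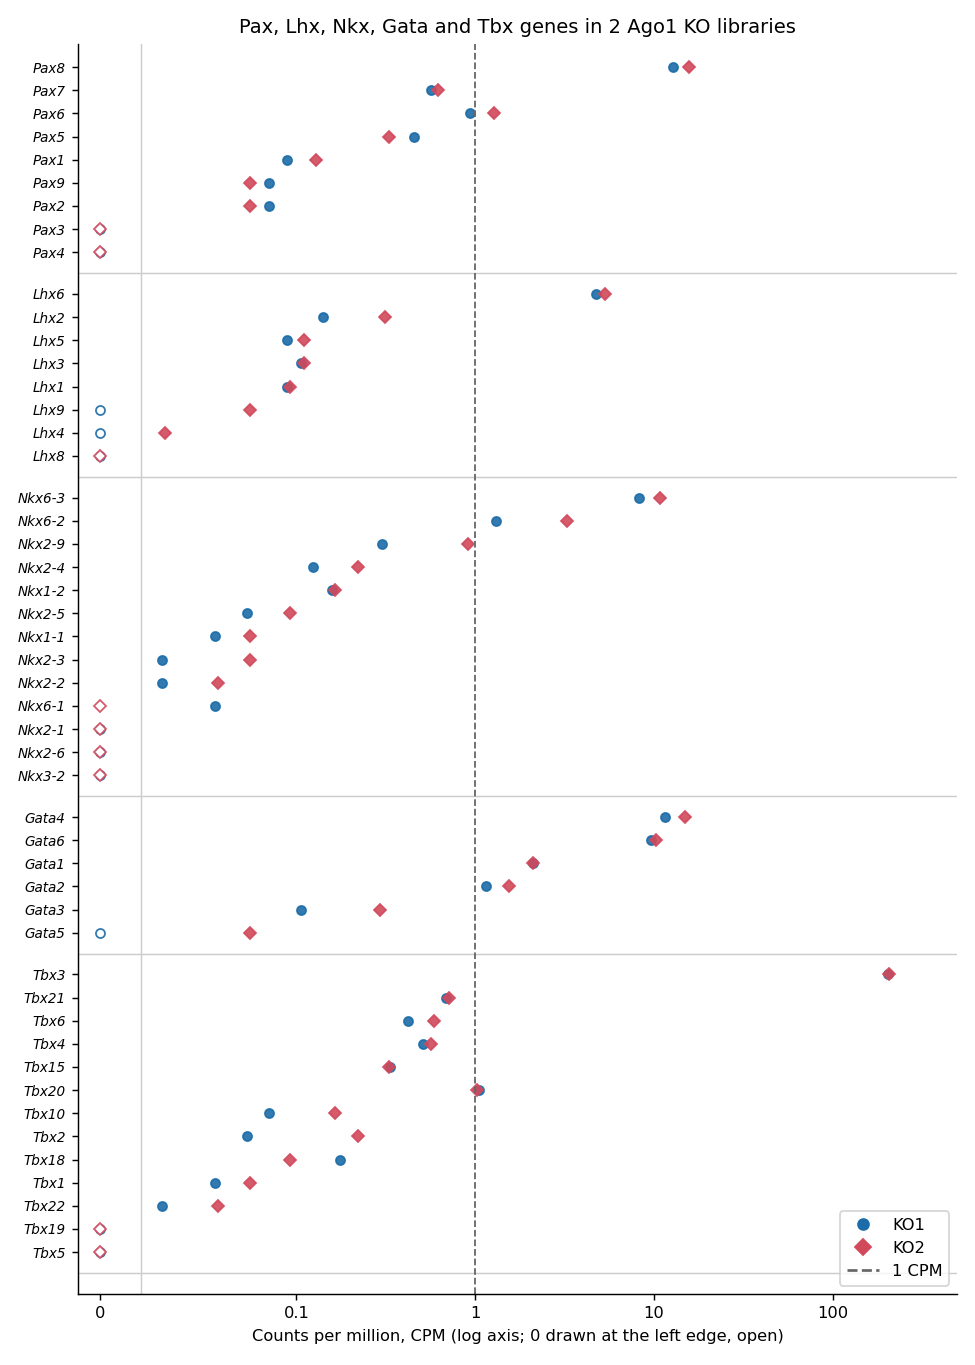
Level of 49 members in CPM (log axis) in KO1 (circles) and KO2 (diamonds), by family and in order of level per exonic length. Open symbols mark a count of 0, and the dashed line marks 1 CPM. Tbx3 lies near 205 CPM, and 39 members do not reach 1 CPM in both libraries.

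Other developmental gene families gave a scale for these shares. Of the Hox cluster genes 4 of 39 were detected (10.3%), of the forkhead genes 19 of 44 (43.2%) and of the numbered Sox genes 10 of 19 (52.6%). The shares were not tested against each other.

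Among genes below the detection threshold, a larger share of the members than of all protein-coding genes had a CpG-rich promoter. RefSeq promoter windows of GRCm38.p6, from 250 bases before a gene's start to 50 after it, were matched by symbol for 38 of the 50 members, and for 6 of the 11 detected ones. Tbx3, Nkx6-3, Gata4 and Gata6, the members with the highest levels besides Pax8, were not among them. A window was called CpG-rich with a GC content of at least 50% and a CpG content of at least 0.6 of that expected from its C and G content. Of 32 members that were not detected, 18 (56.25%) had a CpG-rich window, beside 1022 of 6908 protein-coding genes that were not detected (14.8%). Of these 32 members 28 had some reads, whereas 2988 of the 6908 protein-coding genes had no count. Of the 4 members with no count 1 was CpG-rich, beside 86 of those 2988 genes (2.88%). The sets thus differed in make-up, and the shares among undetected genes with some reads were not compared. Of 6 detected members 3 were CpG-rich, beside 6856 of 9605 detected protein-coding genes (71.4%) and 47.7% of all protein-coding genes with a window. These shares are descriptions with no test, and members of 1 family share ancestry.

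The promoters below are examples of members that differ in CpG content: 2 are of detected members, CpG-poor and CpG-rich, and 3 are of members with few or no reads. Each is the 250 bases before the RefSeq start, 5′ to 3′ on the gene's strand, and capitals mark each CG dinucleotide.
Pax8: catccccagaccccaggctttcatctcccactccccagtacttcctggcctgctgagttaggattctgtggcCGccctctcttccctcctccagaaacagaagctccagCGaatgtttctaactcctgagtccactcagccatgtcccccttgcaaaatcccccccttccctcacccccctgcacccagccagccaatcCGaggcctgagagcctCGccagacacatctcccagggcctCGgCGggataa
Nkx6-2: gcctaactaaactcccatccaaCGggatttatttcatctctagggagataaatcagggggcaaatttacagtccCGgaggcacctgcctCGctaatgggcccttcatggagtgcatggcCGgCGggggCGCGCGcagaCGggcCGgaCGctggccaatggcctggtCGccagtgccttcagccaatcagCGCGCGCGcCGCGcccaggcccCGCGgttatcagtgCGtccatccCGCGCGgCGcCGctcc
Lhx2: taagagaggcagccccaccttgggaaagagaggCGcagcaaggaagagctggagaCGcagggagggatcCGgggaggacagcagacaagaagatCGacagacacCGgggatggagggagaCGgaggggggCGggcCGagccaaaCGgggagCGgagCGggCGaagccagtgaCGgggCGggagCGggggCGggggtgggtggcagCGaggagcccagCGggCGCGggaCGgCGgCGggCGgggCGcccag
Nkx1-1: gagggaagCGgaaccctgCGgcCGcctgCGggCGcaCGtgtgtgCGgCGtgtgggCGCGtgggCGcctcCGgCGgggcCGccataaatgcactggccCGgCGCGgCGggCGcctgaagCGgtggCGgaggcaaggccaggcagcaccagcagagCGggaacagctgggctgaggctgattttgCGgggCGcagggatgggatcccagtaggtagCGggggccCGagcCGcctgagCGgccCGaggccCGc
Tbx19: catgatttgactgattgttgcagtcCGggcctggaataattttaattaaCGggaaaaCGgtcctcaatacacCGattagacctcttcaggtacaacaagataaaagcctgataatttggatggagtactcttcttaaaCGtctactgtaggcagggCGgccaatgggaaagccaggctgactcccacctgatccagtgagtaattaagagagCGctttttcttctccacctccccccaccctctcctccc
The Pax8 stretch (chr2:24475600-24475849, minus strand) held 6 CG dinucleotides, and Pax8 had 726 counts in KO1 and 854 in KO2. That of Nkx6-2 (chr7:139582798-139583047, minus strand) held 26, with 74 and 178 counts. Both genes were detected, so the detected members included a CpG-poor and a CpG-rich promoter, though not the lowest or highest CpG content among members. The Lhx2 stretch (chr2:38339031-38339280, plus strand) held 25 CG dinucleotides and that of Nkx1-1 (chr5:33434091-33434340, minus strand) held 30. Lhx2 had 8 counts in KO1 and 17 in KO2. Nkx1-1 was lower still, at 2 and 3. Both were thus CpG-rich, at 0.895 and 0.885 of the expected CpG content over these bases beside 0.982 for Nkx6-2, and lay below the detection threshold. The Tbx19 stretch (chr1:165160774-165161023, minus strand) held 7, and Tbx19 had 0 counts in both libraries.

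**Figure D2:**
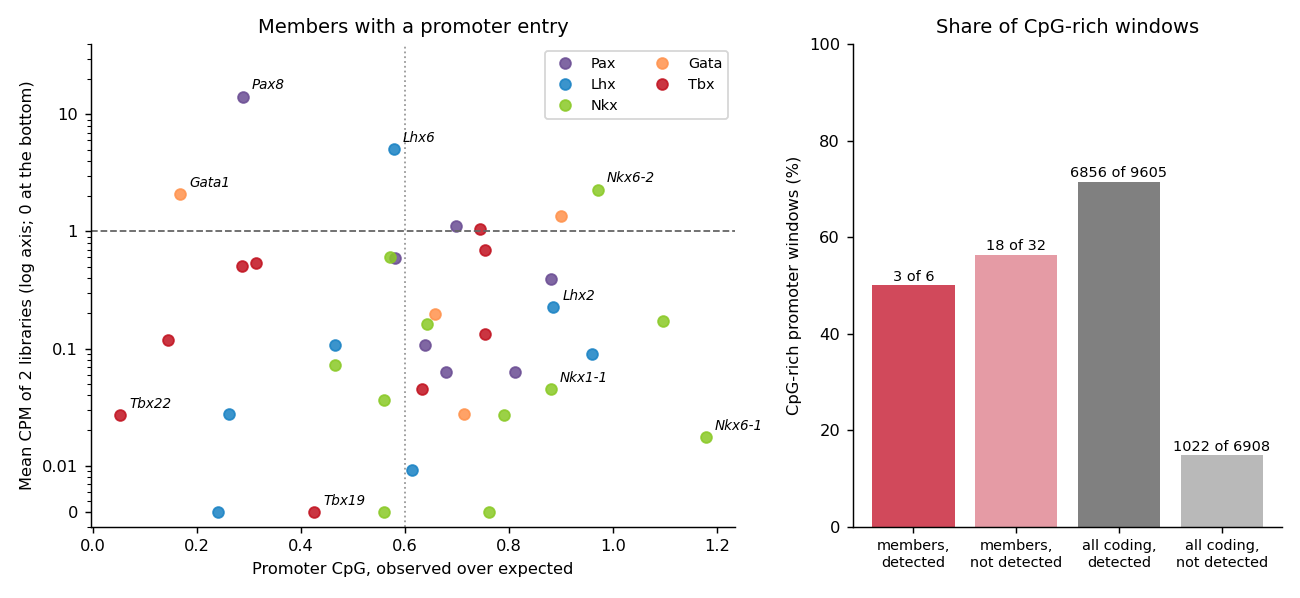
Left, CpG content of the promoter window (observed over expected) against mean CPM (log axis, 0 at the bottom) for the 38 members with a window, coloured by family; the dashed line marks 1 CPM and the dotted line 0.6. Right, share of CpG-rich windows (%) with counts: 3 of 6 detected members, 18 of 32 members not detected, 6856 of 9605 detected protein-coding genes and 1022 of 6908 not detected.

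Across the windows of members, CpG content ran from 0.0520 of that expected at Tbx22, a palate factor, to 1.18 at Nkx6-1, a factor of pancreatic islets and motor neurons. Nkx6-1 had 2 counts in KO1 and 0 in KO2 in spite of 40 CG dinucleotides in its window. Its relative Nkx6-2, a factor of oligodendrocytes, had 32 in its window and was detected. The CpG-rich one of the 4 members with a window and no count was Nkx3-2, a factor of cartilage.

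Tbx3, a T-box repressor, dominated the members. It had 11550 counts in KO1 and 11306 in KO2, or 203 CPM (95% exact Poisson interval 199.6 to 207) and 207 CPM (203 to 211). Its mean was 205 ± 2.57 CPM (SD, n = 2), and it held 75.3% of all reads of the 50 genes. Before correction for GC content the libraries were thus nearly level for Tbx3. Scaled to exonic length as TPM (transcripts scaled to 1000000 per library), the scale on which genes are compared here, it lay at 107 ± 0.750 TPM, above 92.5% of protein-coding genes. Tbx3 (ENSMUSG00000018604) lies at chr5:119670669-119684724 on the plus strand.

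No other T-box member came near this level. Tbx20, a cardiac factor with 60 and 56 counts, just passed the threshold at 1.06 and 1.03 CPM. Its exons span 11997 bases, however, so per length it was at 0.299 ± 0.0122 TPM (SD, n = 2). Both Tbx21, the T-bet gene of T helper cells, and Tbx6, a factor of paraxial mesoderm, lay below 1 CPM and yet above Tbx20 per length. Tbx21 had 39 counts in each library and 0.969 ± 0.00781 TPM, and Tbx6 had 24 and 32 counts and 0.960 ± 0.201 TPM. Their means differed by less than the spread of Tbx6. Tbx6 begins 968 bases beyond the end of Ypel3, a gene on the same strand at 16.2 ± 3.63 TPM, and the part of read-through in its counts was not tested.

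Among the T-box genes of the limbs, Tbx4, of the hindlimb, had 29 counts in KO1 and 31 in KO2, whereas Tbx5, of the forelimb, had 0 in both. A count of 0 allows up to 3 counts by a one-sided 95% limit, or 0.0528 CPM in KO1 and 0.0549 CPM in KO2, and the two-sided exact interval reaches 0.0649 and 0.0675 CPM. Tbx19, a pituitary factor, also had 0 in both. Tbx15, of skeletal and muscle precursors, had 19 and 18 counts. Tbx18, of the heart and urinary tract, had 10 and 5, Tbx2, a relative of Tbx3, had 3 and 12, and Tbx10 had 4 and 9. Tbx1, of the pharyngeal arches, and Tbx22 had 2 and 3, and 1 and 2. Of these low genes only Tbx2 had an interval of the ratio that excluded equal levels before correction for GC content (log2 ratio 1.89, 0.17 to 4.52), and it included them after (-0.77 to 3.58).

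The Gata genes were the family with the largest detected share, 4 of 6. Gata4, of the primitive endoderm and heart, had 659 counts in KO1 and 816 in KO2, or 11.6 and 14.9 CPM. Gata6, which acts at the start of primitive endoderm formation, had 550 and 559 counts, or 9.68 and 10.2 CPM. Both were above 5 TPM in each library, Gata4 at 11.7 ± 1.85 TPM (SD, n = 2) and Gata6 at 5.26 ± 0.103 TPM. Gata4 thus exceeded Gata6 per length in both libraries, by more than the spread of either. Gata4 (ENSMUSG00000021944) lies at chr14:63198922-63271692 on the minus strand and Gata6 (ENSMUSG00000005836) on chromosome 18.

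Other markers of primitive endoderm were present beside Gata4 and Gata6. Of 12 listed markers 11 were detected and none was at 0, with a summed level of 526 CPM in KO1 and 634 CPM in KO2. Hnf4a, a nuclear receptor of endoderm, was at 16.0 and 17.9 CPM, and Sox17 at 2.25 and 3.15 CPM. Foxa2, at 0.686 and 1.06 CPM, was the one below the threshold. Whether Gata4 and Gata6 came from a few endoderm cells or from many cells was not tested.

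The blood-associated Gata genes were detected at lower levels. Gata1, the erythroid factor on the X chromosome, was counted 119 times in KO1 and 115 times in KO2, and its level of 2.96 ± 0.0478 TPM (SD, n = 2) was above that of Gata2. Gata2, of blood stem cells, had 65 and 85 counts and 0.859 ± 0.169 TPM. Both were well above the remaining pair. Gata3, of T cells and trophectoderm, had 6 and 16 counts, and Gata5, of heart and endoderm, had 0 and 3. Of 8 trophectoderm markers 4 were detected, with a summed level of 55.3 CPM in KO1 and 72.0 CPM in KO2. Tfap2c, at 28.4 and 35.3 CPM, Krt8, at 14.2 and 21.4, and Krt18, at 10.7 and 12.9, made up most of this sum. Esx1 was also detected. The markers Cdx2, with 16 and 21 counts, Elf5, with 8 and 1, Hand1 and Plac1 were below 1 CPM. The part of trophectoderm cells in the Gata3 counts was not tested.

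Pax8, a factor of the thyroid and kidney, was the one Pax gene detected. The counts given above correspond to 12.8 and 15.6 CPM, on average 14.2 ± 2.02 CPM (SD, n = 2), and per length to 8.06 ± 0.988 TPM. Pax8 held 89.0% ± 0.712 of the TPM of its family. Its closest relatives, Pax2 of the kidney and Pax5 of B cells, had 4 and 3 counts and 26 and 18 counts. Pax8 thus stood apart from the genes most like it in sequence. The gene (ENSMUSG00000026976) lies at chr2:24420560-24475599 on the minus strand, and 6.06% of its exonic bases lie under exons of another gene on the opposite strand.

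Pax6, the eye and forebrain factor, lay at the threshold with 53 counts in KO1 and 70 in KO2, or 0.933 and 1.28 CPM. Pax7, of muscle stem cells, had 32 and 34 counts, which is 0.348 ± 0.0177 TPM (SD, n = 2) beside 0.325 ± 0.0661 TPM for Pax6. The order of these Pax genes therefore depends on length, and they did not differ beyond their spread in TPM. Pax1 and Pax9, both of the developing vertebrae, had 5 and 7 counts and 4 and 3 counts. Pax3, of neural crest and muscle, and Pax4, of pancreatic islets, had 0 in both libraries. Of 6 neural markers 2 were detected, Tubb3 and Sox1, and 7 listed skeletal muscle genes summed to 11.2 CPM in KO1 and 1.70 CPM in KO2. These muscle genes were known from an earlier analysis of these data to be higher in KO1, so that direction is no new result. Pax7 was at 0.563 and 0.622 CPM in the same libraries, and the part of muscle or neural cells in the Pax counts was not tested.

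Lhx6, a factor of cortical interneurons, was the one LIM-homeodomain member detected. It had 268 counts in KO1 and 292 in KO2, or 4.72 and 5.34 CPM, and its mean of 3.60 ± 0.247 TPM (SD, n = 2) was 87.6% ± 2.05 of the family. The other 7 members had 25 counts or fewer over both libraries. Lhx6 (ENSMUSG00000026890) lies at chr2:36081953-36105408 on the minus strand, and 2.16% of its exonic bases are shared with another gene on that strand. Lhx8, its closest relative, had 0 counts in both libraries. Lhx2, of the eye and forebrain, had 8 and 17 counts. Lhx1 and Lhx5, of the head and forebrain, had 5 and 5 counts and 5 and 6 counts. Lhx3 and Lhx4, of the pituitary, had 6 and 6 counts and 0 and 1, and Lhx9, of the gonad, had 0 and 3.

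Of the 14 Nkx genes 3 were detected, and the highest was Nkx6-3, a factor of the stomach. It had 469 counts in KO1 and 590 in KO2, or 8.26 and 10.8 CPM. Because its exons span 2238 bases, it reached 14.6 ± 2.48 TPM (SD, n = 2), second to Tbx3 among the members. Gata4 followed at 11.7 ± 1.85 TPM, and the means of the pair differed by more than either spread. Nkx6-3 (ENSMUSG00000063672) lies at chr8:23153269-23158948 on the plus strand. The end of Ank1, the erythrocyte ankyrin gene, lies 2771 bases upstream on the same strand, and Ank1 was at 0.103 ± 0.0234 TPM, below Nkx6-3.

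Nkx6-2 was the second Nkx gene, with 74 counts in KO1 and 178 in KO2, or 1.30 and 3.26 CPM. It was thus higher in KO2, and the ratio is given with its GC correction further on. Nkx2-9, with 17 and 50 counts, stayed below the threshold at 0.299 and 0.915 CPM. Nkx2-4 had 7 and 12 counts, Nkx1-2 had 9 in each library, and Nkx2-5, the early heart factor, had 3 and 5. Nkx2-3, of the gut and spleen, had 1 and 3 and Nkx2-2, of the ventral neural tube, 1 and 2. Nkx2-1, of the lung and thyroid, Nkx2-6 and Nkx3-2 had 0 in both libraries. Nkx2-1 and Pax8 act together in the thyroid, and of this pair Pax8 alone had reads here.

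**Figure D3:**
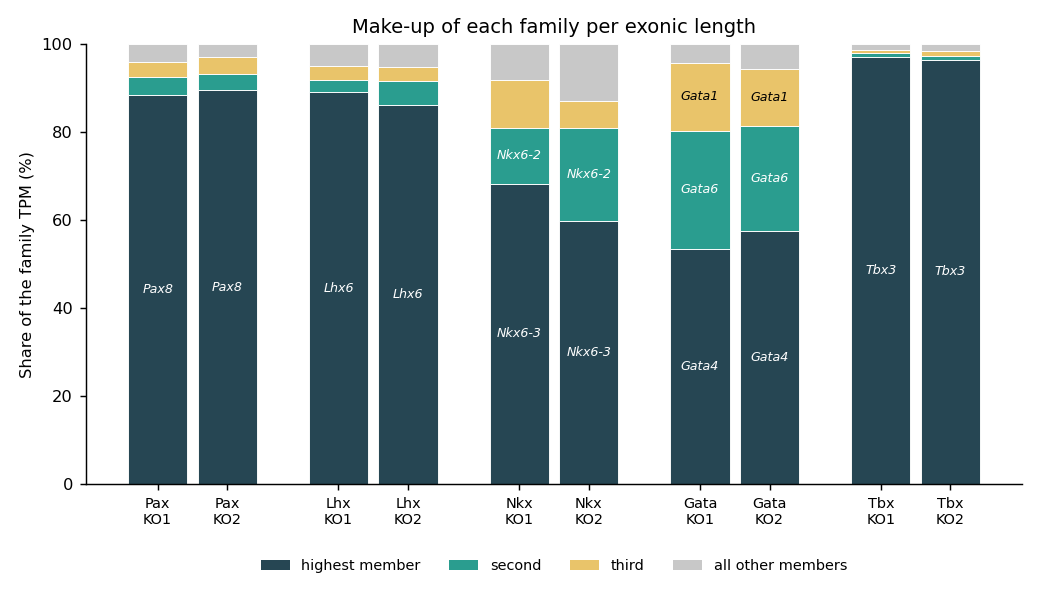
Share of each family's summed TPM (%) held by its 3 highest members and by all others, in KO1 and KO2. Tbx3, Pax8 and Lhx6 hold more than 86% of their families in each library, whereas Nkx6-3 and Gata4 hold from 53.5% to 68.3%.

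By family, reads were concentrated in 1 gene in 3 of the 5 cases. Per length, Tbx3 held 96.7% ± 0.397 of the T-box family (SD, n = 2), and Pax8 and Lhx6 held the shares given above. In the Nkx family Nkx6-3 held 64.0% ± 6.06, with 68.3% in KO1 and 59.7% in KO2. In the Gata family Gata4 held 55.5% ± 2.93, followed by Gata6 at 25.2% ± 2.19 and Gata1 at 14.2% ± 1.74. The summed levels were 110 ± 0.323 TPM for Tbx, 23.2 ± 6.07 for Nkx, 9.05 ± 1.04 for Pax and 4.12 ± 0.379 for Lhx, and the Gata sum was 19.4 TPM in KO1 and 22.5 TPM in KO2. Nkx and Gata thus differed by less than the spread of the Nkx sum, and the other families lay further apart than their spread.

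Some members that lie close together on a chromosome had very different levels. Described here are 10 genes in 4 groups, each within 200 kb of another member. The largest difference was between Tbx3 and Tbx5 on chromosome 5, where Tbx5 (chr5:119832668-119885219) begins 147943 bases beyond the end of Tbx3 and had 0 counts. On chromosome 12, Nkx2-9 lies between Nkx2-1 and Pax9, and it had 17 and 50 counts where its neighbours had 0 and 0, and 4 and 3. In both groups a member with reads thus sat beside one with none in either library. On chromosome 2, Nkx2-4, Nkx2-2 and Pax1 were all low, with at most 12 counts in a library, and on chromosome 11 Tbx2 and Tbx4 were both below 1 CPM.

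**Figure D4:**
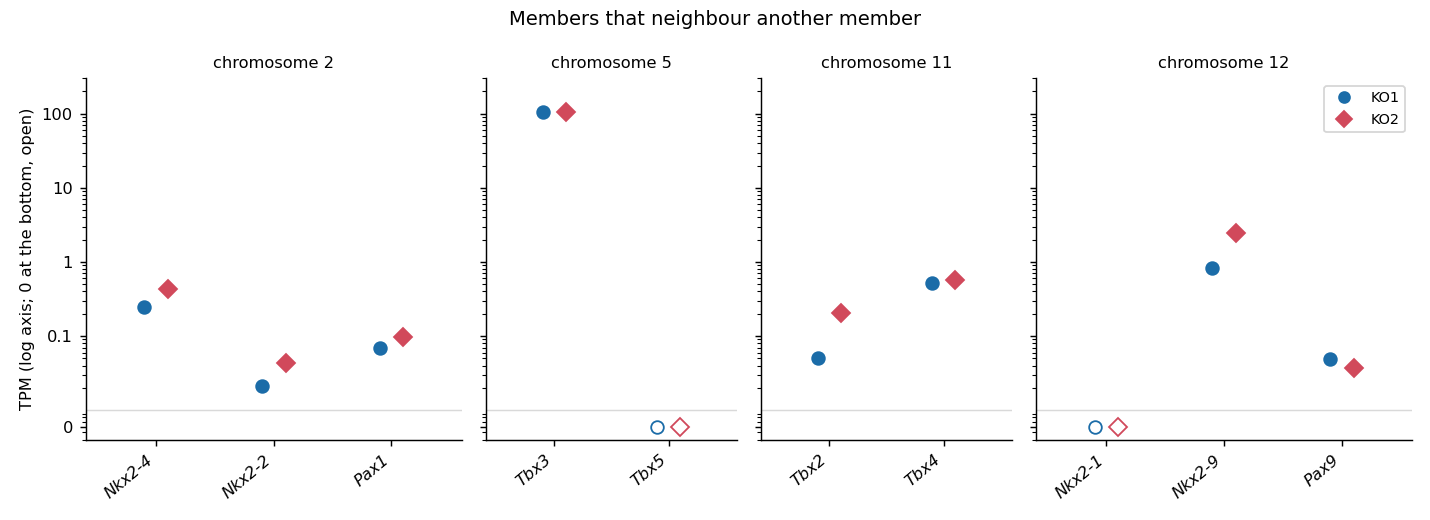
Level in TPM (log axis) of 10 members that lie within 200 kb of another member, in KO1 (circles) and KO2 (diamonds), by chromosome and in map order; open symbols mark a count of 0. Tbx3 lies near 107 TPM and its neighbour Tbx5 at 0.

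Noncoding genes on the opposite strand accompanied 29 members. They were taken when they overlapped the member or started within 5 kb of its start, which gave 34 genes. The same shares over all noncoding genes were not computed, so the counts that follow have no background beside them. Of the 34 genes none was at 1 CPM in both libraries, and 22 had no count. Over both libraries 7 had 1 to 9 counts and 5 had 10 or more. Of these 5, Tbx3os1, Gm13415, Gm15816 and 1010001N08Rik lie at Tbx3, Pax8, Nkx6-3 and Gata6, which were all detected. Tbx3os1 starts 696 bases inside Tbx3 and had 55 counts in KO1 and 40 in KO2. At Gata6, 1010001N08Rik starts 503 bases from the start of the gene and had 32 and 49. At Tbx3 and Gata6 the counts on the opposite strand were thus far below those of the member itself. Gm13415 at Pax8 had 49 and 38 counts, Gm15816 at Nkx6-3 had 36 and 46, and Gm9967 at Tbx6, which was not detected, had 15 and 9 beside 24 and 32 for Tbx6. Since no source names the strand setting of the counting, reads of overlapping genes may have been shared between them.

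The partners of the families were transcribed about as widely as protein-coding genes in general. Among 38 listed partners and relatives, 23 were detected, beside 55.5% of all protein-coding genes. The LIM cofactors were represented by 6 of 10, led per length by Ldb1, the adaptor that LIM proteins bind, at 92.6 ± 25.9 TPM (SD, n = 2) and the ubiquitin ligase gene Rlim at 87.9 ± 19.3 TPM. Its paralogue Ldb2 had 0 counts in both libraries. The 4 LIM-homeodomain relatives Isl1, Isl2, Lmx1a and Lmx1b were all below 1 CPM. The cofactors were thus present with Lhx6 as the one LIM-homeodomain gene detected in either set.

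Genes of the Groucho family, which includes corepressors that several Pax and Nkx proteins recruit, were detected in 5 of 6 cases. Tle4 was at 131 ± 2.90 TPM and Aes at 129 ± 43.5 TPM (SD, n = 2), and Tle2 was lowest at 0.428 ± 0.116 TPM. Among the GATA partners and relatives 5 of 7 were detected. Zfpm1, which encodes the GATA1 partner FOG, was counted 72 times in KO1 and 162 times in KO2, whereas Zfpm2, the partner of GATA4, had 21 and 8. The highest of that set were Gatad2a, a subunit of the NuRD complex, at 93.3 ± 26.2 TPM and Gatad1 at 54.4 and 45.7 TPM in KO1 and KO2. Thus 1 of the 2 FOG genes passed the threshold. Of the PAX partners 5 of 7 were detected, with Eya3, a phosphatase and coactivator, at 49.5 ± 0.0264 TPM and Paxip1 at 32.9 ± 1.29 TPM. Of 4 T-box relatives Mga, at 91.0 ± 19.6 TPM, and Eomes were detected, and T and Tbr1 were not.

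Members were also compared between the 2 libraries, by the ratio of scaled counts in KO2 to those in KO1 with an exact binomial 95% interval. This compares libraries of 1 group and not conditions. To be called different, a gene needed an interval entirely outside 2-fold and at least 50 counts over both libraries. By this rule 0 of the 17 members with enough counts were called, beside 1.06% of 15619 genes. Taken by direction, 0 were higher in KO2, beside 0.98%, and 0 were lower, beside 0.0768%. At 1.5-fold 2 members were called, Nkx6-2 and Nkx2-9, beside 6.6% of genes. The log2 ratio was 1.32 for Nkx6-2 (95% interval 0.92 to 1.73) and 1.59 for Nkx2-9 (0.79 to 2.5).

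Both genes have GC-rich transcripts, of 64.3% and 60.4% GC, and the ratio between the libraries rose with GC content in general. The median log2 ratio of all genes went from -0.40 at a GC content of 35% to 40% to 0.86 at 60% to 65%. After a loess correction for GC content the log2 ratios were 0.33 (-0.07 to 0.74) for Nkx6-2 and 0.80 (0.01 to 1.71) for Nkx2-9. No member was then called at 1.5-fold, beside 0.84% of genes, or at 2-fold, beside 0.244% (0.16% higher and 0.0833% lower in KO2). The difference of Nkx6-2 was thus no longer beyond counting error once GC content was taken into account.

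**Figure D5:**
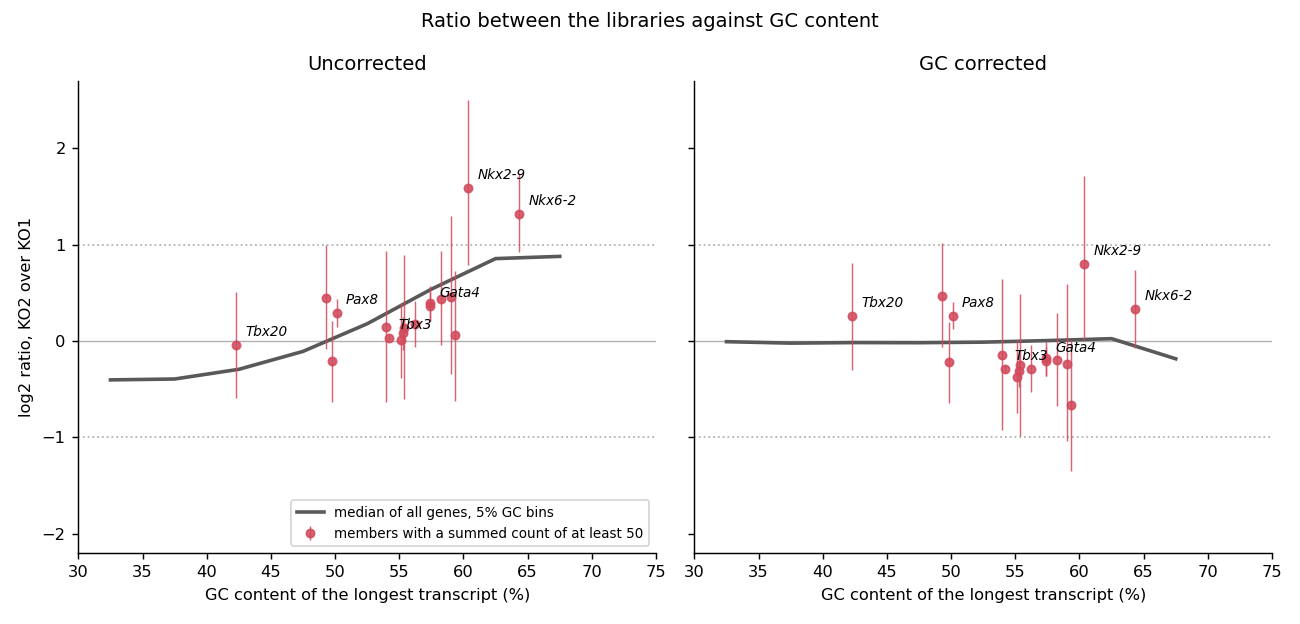
Log2 ratio of KO2 over KO1 against GC content of the longest transcript (%) for the 17 members with a summed count of at least 50, without (left) and with (right) correction for GC content. Bars are exact binomial 95% intervals, the grey line is the median of all genes in bins of 5% GC, and dotted lines mark 2-fold; Nkx6-2 moves from 1.32 to 0.33.

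Over the 21 members that averaged 10 counts or more, the median log2 ratio was 0.18, beside 0.01 for all 18115 genes with that minimum. It was -0.20 after the correction, beside -0.01. Before correction 6 members had an interval wholly above equal levels, beside 30.6% of genes, and 0 wholly below, beside 27.3%. After correction 3 lay above, beside 17.0%, and 5 below, beside 18.9%. Pax8 kept its direction, at 0.29 (0.15 to 0.44) before and 0.26 (0.12 to 0.41) after. Gata4 did not, at 0.36 (0.21 to 0.51) before and -0.21 (-0.36 to -0.06) after. Tbx3 was at 0.03 (-0.01 to 0.06) before and -0.29 (-0.32 to -0.25) after. The direction for Gata4 thus depended on the correction, whereas that for Pax8 did not.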

How the data were processed

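The authors deposited 1 table of raw read counts per Ensembl gene for 2 libraries of polyadenylated RNA. Per the submitters' processing notes the build was GRCm38, and per the labels libraries were reverse-stranded. No source used here names the aligner, the counter or its settings. Of 55421 genes, 55154 were matched to GENCODE M21, which gave symbols, positions, exonic lengths and GC content.

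Counts were scaled to CPM with TMM factors (0.996 and 1.00) of edgeR 4.0.16, and to TPM by the union of exons. Intervals are exact Poisson or conditional binomial at 95%, with a prior count of 0.5 on log2 ratios. Because PCR copies are not independent molecules, these intervals reflect counting error alone. The GC correction was a loess fit in R 4.3.3 with a span of 0.3. The ratio rule was tested on simulated counts with counting error alone and no trend with GC content. Since these libraries have such a trend, the simulation does not show how the rule performs on them. Exon overlaps were made with bedtools 2.31.1. Tbx21 was left out of the partner list as a member, and Tle5 had no entry under that symbol.

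Members, lists and tests were chosen with earlier results of these data known. All members could be named, as could the highest 2 and lowest 1 of each partner subgroup and genes that differed. Other partners, markers and the genes upstream of Tbx6 and Nkx6-3 were named after their values were seen. Protein sequences were not used here, and 1 member is counted in totals but not reported on its own. DESeq2 1.42.0 size factors, other thresholds and each library alone were alternatives.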

Additional observations from a re-analysis of the deposited data

How the results depend on the processing

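No paired analysis was possible because there is a single group. The number of detected members, 11, was 7 at 2 CPM and 19 with at least 10 counts in both libraries. By family it was 3 for Pax and 4 for Tbx at 0.5 CPM, 1 for Nkx and 1 for Tbx at 2 CPM, and 1 for Tbx at 1 TPM. Each follows from the threshold. With each library alone, the Pax count was 1 to 2. Per exonic length the leading shares were 89.0% for Pax, 87.6% for Lhx, 55.5% for Gata and 96.7% for Tbx, against 85.9%, 90.1%, 49.1% and 98.3% in CPM. The count of members differing, 0, was 2 at 1.5-fold. With the GC correction the median log2 ratio of members reversed from 0.18 to -0.20, that of Nkx6-3 from 0.39 to -0.18 and that of Gata4 from 0.36 to -0.21. The cause was not tested. Alternatives for noncoding neighbours and promoters were added after seeing the data: 4 neighbours were detected at 0.5 CPM, and with starts within 100 bases of the GENCODE start 16.4% of undetected protein-coding genes were CpG-rich, beside 9 of 18 undetected members. With DESeq2 size factors, both 1, the log2 ratio of Tbx3 was -0.03 in place of 0.03. A single library is always within 1 SD of a mean of 2. For the 12 members with 1 to 9 counts, depth sets what can be said.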
